A study of Arabidopsis thaliana with 6 samples.

Results

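The enzymes of the Calvin cycle and of photorespiration were followed in rosette leaves of Arabidopsis thaliana grown with or without added nitric oxide (NO). The members were 35 nuclear genes taken from a list of loci, 23 for the Calvin cycle with Rubisco and 12 for photorespiration, out of 25383 genes that could be named on the array. Probes were assigned to a locus through the transcript accession the scanner files give them, and 114 of the 43603 gene probes belonged to the members. The plants were wild type in both groups and were raised on soil with sand. The first group, called ambient, was fumigated with ambient air, and the second received the same air mixed with 3 ppm NO at all hours of the day until harvest at 4 weeks. The NO content of the ambient air is not given in the sources used here. Each group consisted of 3 arrays, described by the labels as independent biological experiments, and each array measured RNA of whole rosette leaves. The title of the series names NO as a source of nitrogen, and the comparison asked which of these transcripts differed after growth in added NO.

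The Calvin cycle is the chloroplast pathway that builds CO2 into sugar. Rubisco attaches CO2 to ribulose bisphosphate, the product is reduced to triose phosphate with ATP and NADPH from the light reactions, and the remaining enzymes rebuild the acceptor. Rubisco also accepts oxygen, which yields phosphoglycolate, and photorespiration returns its carbon to the cycle through chloroplasts, peroxisomes and mitochondria, with release of CO2 and ammonium at the glycine decarboxylase step. In a leaf the enzymes of both pathways are among the most abundant proteins.

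All 6 arrays carried 61657 gene spots, with no gene spot saturated, and the share of them well above background was 65.2% to 66.8% in ambient and 68.5% to 72.0% in NO. The 3 ambient arrays lay on 1 slide and were scanned together, and the 3 NO arrays lay on another, so slide, scan and treatment cannot be told apart. Arrays of the same group correlated across genes at 0.995 to 0.997 and arrays of different groups at 0.968 to 0.970. By these correlations no array stood apart from its group. NO replicate 2 was brighter, with a 75th percentile of 1321 before scaling, against 715 and 842 for NO replicates 1 and 3. Its share of spots well above background was 72.0%, against 68.6% and 68.5%. Values below are log2 signals relative to the 75th percentile of the array, called relative log2 signals, and each gene is represented by its brightest probe. They compare 1 probe between arrays and do not rank genes by transcript abundance. A change is the mean of the 3 NO arrays minus the mean of the 3 ambient arrays on the log2 scale, with its SE from limma, and a fold is the same change on the linear scale. Adjusted p-values are from limma's two-sided test, adjusted over 18696 genes by the Benjamini-Hochberg method, and a gene passed at an adjusted p under 0.05. These p-values set the difference between the groups against the spread between arrays of the same group. Any difference between the slides is part of that group difference.

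Of the 35 members, 32 were higher in 3 ppm NO, 0 were lower and 3 did not pass, where of all 18696 genes tested 57.9% passed, 25.7% as higher and 32.2% as lower, and the direction of 10 members turned under quantile normalization. All members were tested, and each was well above background on 6 of 6 arrays. The median change of the members was 0.45 on the log2 scale, beside a median of -0.05 over all genes tested, whose quartiles were -0.27 and 0.25. In the same 32 members every NO array lay above every ambient array, which was the case for 29.0% of all genes tested, while the reverse held for 37.6% of all genes and for 0 members. In bulk leaf RNA, a change in the share of cells of a type and a change in RNA per cell cannot be told apart.

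The median change was larger for the Calvin cycle members than for the photorespiration members. This did not hold evenly across the cycle. Rubisco and activase genes had a median of 0.97, and the enzymes up to triose phosphate with CP12 had 0.94. Genes that regenerate ribulose bisphosphate had a median of 0.43, near the 0.39 of photorespiration. Of the 23 Calvin cycle genes 22 were higher, with a median change of 0.69 and a range from -0.09 to 1.29, and under quantile normalization 15 were higher and 2 lower. Of the 12 photorespiration genes 10 were higher, with a median of 0.39 and a range from -0.03 to 0.89, whereas under quantile normalization 3 were higher, 5 were lower and the median was -0.09. Across all 18696 genes tested, 4489 were higher and 6447 lower under quantile normalization, with a median of -0.07. That setting thus left the count of higher photorespiration members near the share over all genes. At least 2-fold higher were 6 Calvin cycle members and 0 photorespiration members, where 5.01% of all genes tested were higher by that much. Under quantile normalization 2 Calvin cycle members were at least 2-fold higher, and with the mean of probes 10 Calvin cycle members and 1 photorespiration member were. Shares over all genes at that size of change are not given for these settings. Relative to the ambient mean of each gene, the median Calvin cycle member stood at -0.03, 0.01 and 0.05 in ambient air and at 0.72, 0.61 and 0.75 in NO. The median photorespiration member stood at -0.06, 0.02 and 0.05 in ambient air and at 0.43, 0.32 and 0.38 in NO. The Calvin cycle median thus exceeded the photorespiration median by 0.29, 0.28 and 0.37 on the NO arrays. On the ambient arrays both medians lie near 0 because each gene was set to its own ambient mean. The difference between the median changes was 0.30, with no test since the members were chosen, and 0.48 under quantile normalization.

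**Figure D1:**
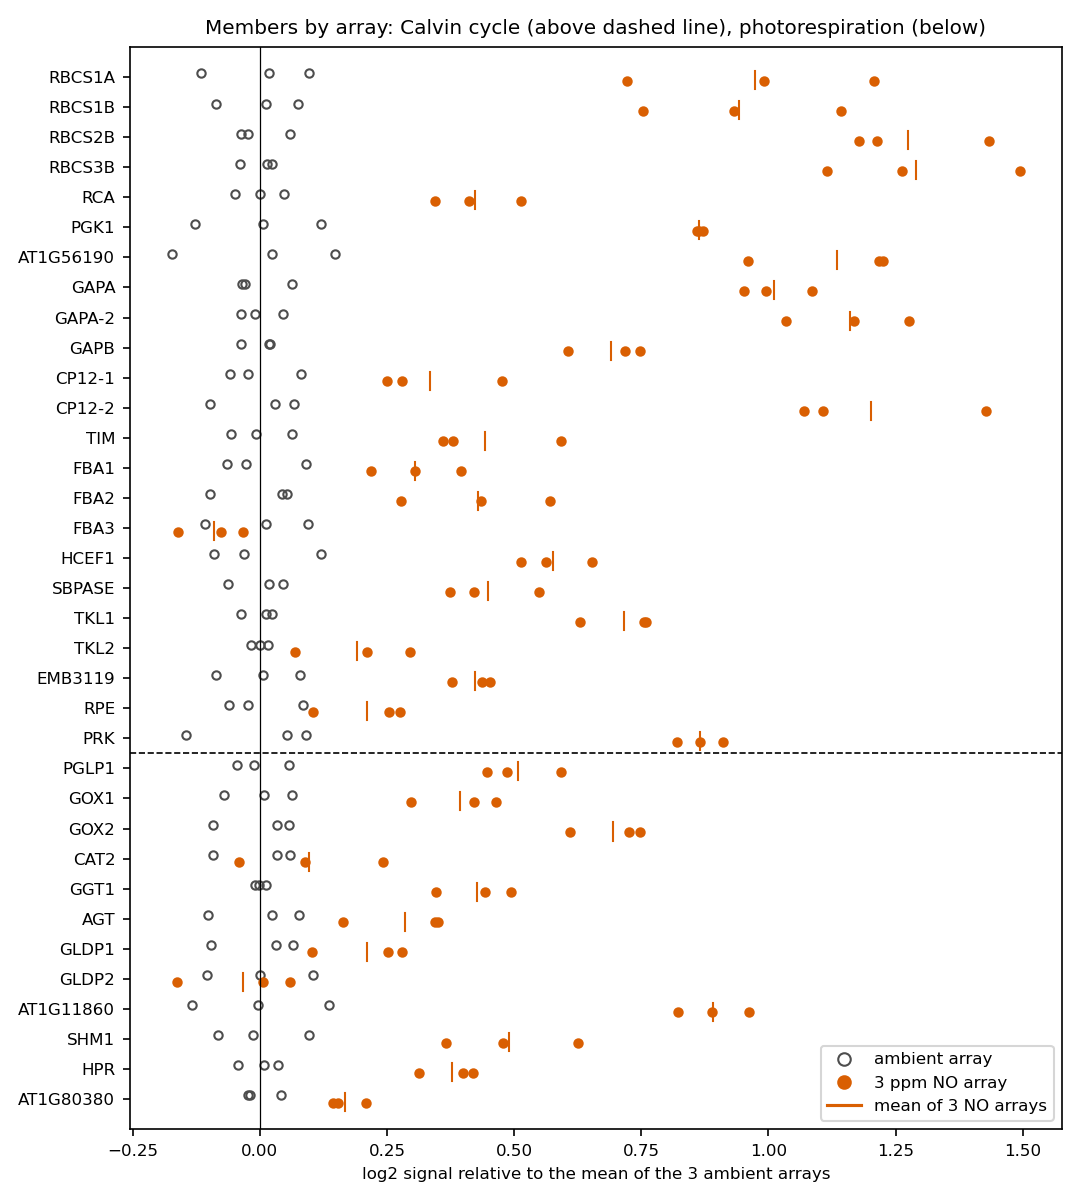
Relative log2 signal of each of the 35 members on each of the 6 arrays, set to 0 at the mean of the 3 ambient arrays. Open circles are ambient arrays, filled circles 3 ppm NO arrays and vertical bars the mean of the NO arrays; the dashed line separates Calvin cycle members from photorespiration members. With scaling to the 75th percentile, the filled circles lie to the right of every open circle in 32 members and overlap them in FBA3, CAT2 and GLDP2; 10 members turn negative under quantile normalization.

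The Rubisco group held 4 genes of the small subunit and RCA, the activase that frees Rubisco of inhibitory sugar phosphates. All 5 were higher in NO, with a median change of 0.97, although RCA was negative under quantile normalization. RBCS3B, a small subunit gene, had relative log2 signals of 6.94, 7.00 and 7.01 in ambient air and 8.48, 8.10 and 8.24 in NO. The groups did not overlap, and the change was 1.29 ± 0.10, or 2.45-fold (limma adjusted p 8.21e-05). RCA had 7.60, 7.55 and 7.65 in ambient air and 8.12, 7.95 and 8.01 in NO. The groups of arrays did not overlap, and the change was 0.42 ± 0.06, or 1.34-fold (limma adjusted p 0.00131), but -0.13 under quantile normalization. The other small subunit genes rose by 0.97 ± 0.13 for RBCS1A, 0.94 ± 0.10 for RBCS1B and 1.28 ± 0.08 for RBCS2B. RBCS3B, RBCS2B and RBCS1B are direct neighbours on chromosome 5, with 0 other protein-coding genes between them, and probes for such close copies can share signal, so their separate values are uncertain. Whether probes of RBCS1A, which also encodes the small subunit, share signal with them was not examined.

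Next come the enzymes that turn the first product of carbon fixation into triose phosphate, together with CP12, the small linker protein that binds glyceraldehyde phosphate dehydrogenase and phosphoribulokinase into an inactive complex in the dark. All 8 of these genes were higher in NO, with a median change of 0.94, and CP12-1 was negative under quantile normalization. GAPA, GAPA-2 and GAPB, which encode the A and B subunits of the NADP-dependent glyceraldehyde phosphate dehydrogenase, rose by 1.01 ± 0.06, 1.16 ± 0.07 and 0.69 ± 0.06, and GAPB was at 0.13 under quantile normalization and did not pass. PGK1, the chloroplast phosphoglycerate kinase, rose by 0.86 ± 0.07, and AT1G56190, a listed Calvin cycle locus without a symbol in the gene table, rose by 1.13 ± 0.11. TIM, the chloroplast triose phosphate isomerase, rose by 0.44 ± 0.08.

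The CP12 genes changed by different amounts. CP12-2 had relative log2 signals of 3.40, 3.57 and 3.53 in ambient air and 4.93, 4.57 and 4.61 in NO, a change of 1.20 ± 0.11 or 2.30-fold (limma adjusted p 0.000156). CP12-1 had 6.71, 6.75 and 6.85 in ambient air and 7.24, 7.02 and 7.05 in NO. Its NO arrays also lay above all ambient arrays, but the change was 0.34 ± 0.08, or 1.26-fold (limma adjusted p 0.00934), and it was -0.21 under quantile normalization. Measured within each array, CP12-1 minus CP12-2 fell by 0.87 ± 0.06 from ambient to NO. For this and all other pairs the SE comes directly from the spread of the 3 and 3 array differences, not from limma. The groups did not overlap, and the exact two-sided permutation p was 0.1, the smallest that 3 against 3 arrays allow.

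Of the 10 genes that regenerate ribulose bisphosphate, 9 were higher in NO with a median change of 0.43, and FBA1 and RPE were negative under quantile normalization. PRK, the phosphoribulokinase that makes the acceptor for CO2 and is specific to the cycle, had relative log2 signals of 3.52, 3.71 and 3.75 in ambient air and 4.53, 4.48 and 4.57 in NO. It had the largest change of this group, 0.87 ± 0.07 or 1.82-fold (limma adjusted p 0.000139). HCEF1, the chloroplast fructose bisphosphatase, rose by 0.58 ± 0.07, and SBPASE, the sedoheptulose bisphosphatase, rose by 0.45 ± 0.06. Under quantile normalization HCEF1 was at 0.26, and SBPASE was at 0.13 and did not pass. EMB3119, a ribose phosphate isomerase, rose by 0.42 ± 0.06, and RPE, the ribulose phosphate epimerase, rose by 0.21 ± 0.07, though RPE was at -0.02 under quantile normalization. RPE passed narrowly (limma adjusted p 0.0355) and no longer passed without ambient replicate 1 or 2 or NO replicate 1 or 3, with changes from 0.18 to 0.20.

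Among the chloroplast aldolases, which join triose phosphates into larger sugars, FBA2 rose by 0.43 ± 0.09 and FBA1 by 0.31 ± 0.07, while under quantile normalization FBA2 was at 0.16 and did not pass and FBA1 was at -0.21. FBA3 was the Calvin cycle member that did not pass. Its relative log2 signals were 1.88, 2.08 and 2.00 in ambient air and 1.83, 1.91 and 1.96 in NO, and the groups overlapped. The change was -0.09 ± 0.07 (limma adjusted p 0.301).

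The transketolases, which move carbon units between sugar phosphates, also differed from each other. TKL1 had relative log2 signals of 5.03, 5.08 and 5.09 in ambient air and 5.82, 5.69 and 5.82 in NO, a change of 0.72 ± 0.06 or 1.64-fold (limma adjusted p 9.6e-05). TKL2 had -0.31, -0.30 and -0.33 in ambient air and -0.02, -0.24 and -0.10 in NO, with no overlap. Its change was 0.19 ± 0.07 (limma adjusted p 0.0455), and it no longer passed when any array other than NO replicate 2 was left out, with changes from 0.14 to 0.20. It also did not pass with normexp (0.067), with median scaling (0.12) or without the filter on dim probes. Within arrays, TKL1 minus TKL2 was higher in NO by 0.52 ± 0.04, without overlap between the groups (exact permutation p 0.1). This difference was 0.75 with normexp, 0.37 with cyclic loess and 0.19 under quantile normalization.

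Photorespiration begins with phosphoglycolate phosphatase and glycolate oxidase, and catalase removes the hydrogen peroxide that the oxidase forms in peroxisomes. Of these 4 genes 3 were higher in NO, although GOX1 was negative under quantile normalization. PGLP1, the phosphatase, rose by 0.51 ± 0.06. GOX2, a glycolate oxidase, had relative log2 signals of 4.92, 4.77 and 4.90 in ambient air and 5.61, 5.47 and 5.59 in NO, a change of 0.69 ± 0.06 or 1.62-fold (limma adjusted p 0.000204), though it was 0.11 and did not pass when both of its probes, 1 of them not well above background, were averaged. GOX1, its direct neighbour on chromosome 3, rose by 0.39 ± 0.06 and was at -0.17 under quantile normalization, and probes of this pair can also share signal. CAT2, the main leaf catalase, had 6.37, 6.50 and 6.52 in ambient air and 6.71, 6.42 and 6.55 in NO. The groups overlapped, and the change was 0.10 ± 0.08 (limma adjusted p 0.359), but -0.45 under quantile normalization, where it passed as lower, and 0.18 with normexp background correction, where it passed as higher (limma adjusted p 0.0424).

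The peroxisomal aminotransferases convert glyoxylate to glycine, GGT1 with glutamate and AGT with serine as the amino donor, and both were higher in NO but lower under quantile normalization. GGT1 had relative log2 signals of 6.27, 6.26 and 6.28 in ambient air and 6.71, 6.62 and 6.76 in NO. The change was 0.43 ± 0.05 or 1.34-fold (limma adjusted p 0.000763), and -0.14 under quantile normalization. AGT had 6.61, 6.73 and 6.78 in ambient air and 7.06, 6.87 and 7.05 in NO. Its groups did not overlap, and the change was 0.29 ± 0.08 (limma adjusted p 0.0168), against -0.27 under quantile normalization. It no longer passed without NO replicate 1 or 3, with changes of 0.25 and 0.26.

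In mitochondria, glycine decarboxylase and serine hydroxymethyltransferase turn glycine into serine, and the 4 listed genes ranged from -0.03 to 0.89, with 3 of them higher in NO and SHM1 and GLDP1 negative under quantile normalization. AT1G11860, a listed photorespiration locus without a symbol in the gene table, had relative log2 signals of 3.10, 3.23 and 3.37 in ambient air and 4.20, 4.06 and 4.13 in NO. It had the largest change among photorespiration members, 0.89 ± 0.08 or 1.85-fold (limma adjusted p 0.000174). SHM1, the mitochondrial serine hydroxymethyltransferase, rose by 0.49 ± 0.08, and was at -0.07 under quantile normalization. GLDP1 and GLDP2 both encode the P protein, the subunit that decarboxylates glycine. GLDP1 rose by 0.21 ± 0.07 (limma adjusted p 0.0402) and was at -0.11 under quantile normalization. It no longer passed when any array other than NO replicate 2 was left out, with changes from 0.16 to 0.24, nor with median scaling (0.14), cyclic loess (0.12) or no filter on dim probes. GLDP2 had 4.93, 5.14 and 5.04 in ambient air and 5.04, 4.88 and 5.10 in NO. Its groups overlapped, and the change was -0.03 ± 0.08 (limma adjusted p 0.755), and -0.30 under quantile normalization, where it passed as lower.

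The remaining steps return carbon to the chloroplast as glycerate. HPR, the peroxisomal hydroxypyruvate reductase, had relative log2 signals of 5.24, 5.32 and 5.29 in ambient air and 5.70, 5.68 and 5.60 in NO, a change of 0.38 ± 0.05 or 1.30-fold (limma adjusted p 0.00111), which under quantile normalization was 0.045 and did not pass. AT1G80380, a listed photorespiration locus without a symbol in the gene table, had 3.05, 3.12 and 3.06 in ambient air and 3.22, 3.23 and 3.28 in NO. The groups did not overlap, and its change of 0.17 ± 0.05 (limma adjusted p 0.0224) was small beside those of most members. It no longer passed without ambient replicate 1 or 3 or NO replicate 3, with changes from 0.15 to 0.16, nor with normexp (0.10), quantile normalization (0.10) or median scaling (0.095), whereas the mean of probes gave 0.42.

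Pairs of members could also be compared within arrays, which removes a scaling factor common to the whole array but not the effect of quantile normalization or cyclic loess. Of these 14 pairs, 11 showed groups that did not overlap. Each of the 11 had an exact two-sided permutation p of 0.1, the smallest possible, so that no pair could pass a threshold of 0.05. Of all single genes tested, 29.0% had every NO array above every ambient array and 37.6% the reverse. The share over other pairs of genes was not computed, so the count does not set these pairs apart. RBCS1A changed less than RBCS2B by 0.30 ± 0.10, a difference of -0.02 under quantile normalization and -0.53 with the mean of probes. RBCS1A changed less than RBCS3B by 0.32 ± 0.06, a difference of -0.16 under quantile normalization and -0.21 with the mean of probes. GAPA changed more than GAPB by 0.32 ± 0.05, against 0.52 under quantile normalization and 0.19 with the mean of probes. GAPA changed less than GAPA-2 by 0.15 ± 0.06, a difference of -0.31 under quantile normalization and -0.085 with the mean of probes. PGK1 changed less than AT1G56190 by 0.27 ± 0.09, a difference of -0.51 under quantile normalization, -0.13 with normexp and -0.12 with the mean of probes. FBA1 changed more than FBA3 by 0.40 ± 0.11, a difference that was -0.13 under quantile normalization and 0.18 with cyclic loess. GLDP1 changed more than GLDP2 by 0.24 ± 0.05, and HCEF1 more than SBPASE by 0.13 ± 0.06, which was 0.020 with normexp. GOX1 changed less than GOX2 by 0.30 ± 0.07, and the difference was -0.56 under quantile normalization, but more by 0.36 when all probes of a gene were averaged, which brings in a GOX2 probe that was not well above background. RBCS1A and RBCS1B differed by 0.03 ± 0.03 with overlapping groups (exact permutation p 0.5), and FBA1 and FBA2 as well as GGT1 and AGT also overlapped (exact permutation p 0.2 for each pair). Under quantile normalization RBCS1A minus RBCS1B was 0.24 and FBA1 minus FBA2 was -0.37.

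**Figure D2:**
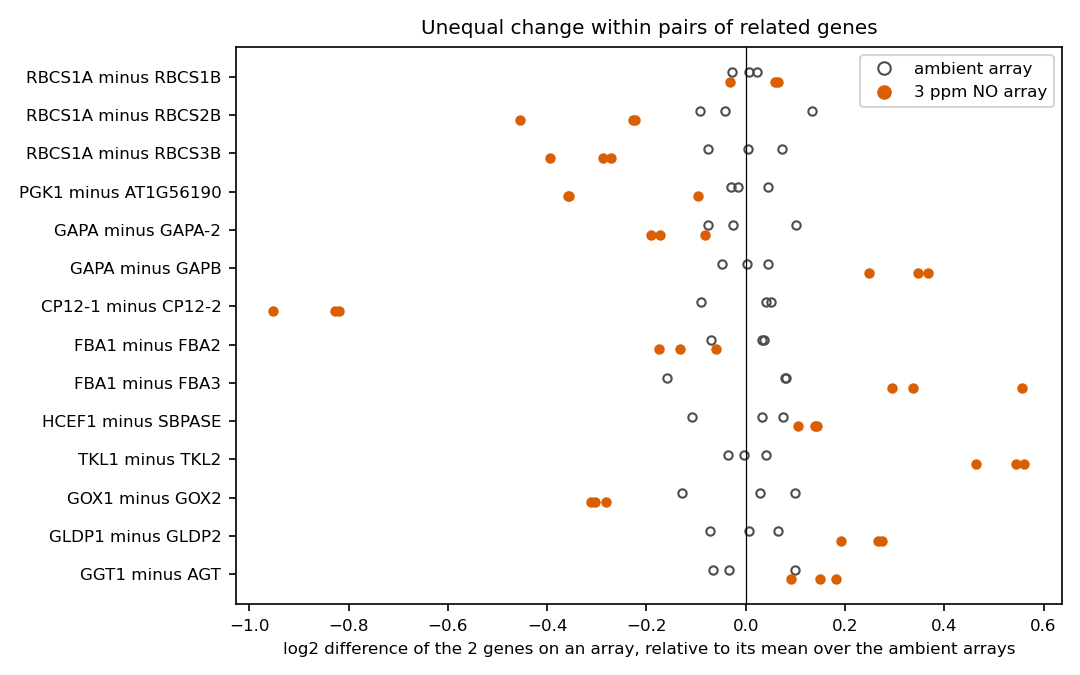
Log2 difference between the genes of each of the 14 pairs on each array, set to 0 at the mean of the ambient arrays. Open circles are ambient arrays and filled circles 3 ppm NO arrays. With scaling to the 75th percentile, CP12-1 minus CP12-2 fell by 0.87 and TKL1 minus TKL2 was higher by 0.52, and the latter was 0.19 under quantile normalization.

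Most members were measured by several probes, and these gave a second view of each gene. Of the 114 probes 113 could be tested, and 104 of them were higher in NO and 0 lower, where 25.6% of all 30197 probes tested were higher. Among Calvin cycle members 75 of 79 probes were higher, with a median change of 0.94, and under quantile normalization 64 were higher and 3 lower. RBCS1A had 13 of these 79 probes, RBCS2B 5, and RBCS1B and RBCS3B 4 each, with changes from 0.84 to 2.09. Probes of 1 gene or of related genes are not replicates. What the median would be without the small subunit genes was not computed. Among photorespiration members 29 of 34 were higher, with a median of 0.43, and under quantile normalization 19 were higher and 5 lower. Shares over all probes are not given for quantile normalization. All 13 probes of RBCS1A were higher, with changes from 0.85 to 1.29, as were all 9 probes of RCA, from 0.42 to 0.84. The 5 probes of RBCS2B ranged from 1.28 to 2.09, so that the size of its change depended on the probe. GLDP2 had 3 probes, none of which passed, with changes from -0.09 to 0.03.

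The brightest probe, which stands for the gene in the counts above, tended to give the smaller change. In 25 of the 27 members with several tested probes, its change was below the median of the gene's other probes, and in 16 it was the lowest of all. For genes with 2 tested probes, such as FBA1 and HPR, both counts rest on the same comparison. Whether bright probes of other genes behave alike was not examined. The 10 members whose brightest probe turned negative under quantile normalization were RCA, CP12-1, FBA1, RPE, GOX1, CAT2, GGT1, AGT, GLDP1 and SHM1. Of these, 9 had further tested probes, 26 in all, and under the same quantile normalization 18 of the 26 were higher and 1 was lower. In 8 of the 9 members at least 1 further probe was higher. For RCA 7 of 8 further probes were higher, with changes from 0.00 to 0.76, and for AGT all 3, from 0.26 to 0.37. CP12-1 had no further probe that was higher and 1 that was lower, and CAT2 had no further probe. GAPB, FBA2, SBPASE, HPR and AT1G80380 stayed positive under quantile normalization but no longer passed. Of the members that still passed as higher, RBCS1B (0.49), RBCS2B (0.76), GAPA (0.65), HCEF1 (0.26), TKL1 (0.39), EMB3119 (0.26) and GOX2 (0.39) had changes smaller by more than 1.5 times. The counts of probes under quantile normalization were made after the values had been seen, and no share over all probes stands beside them.

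**Figure D3:**
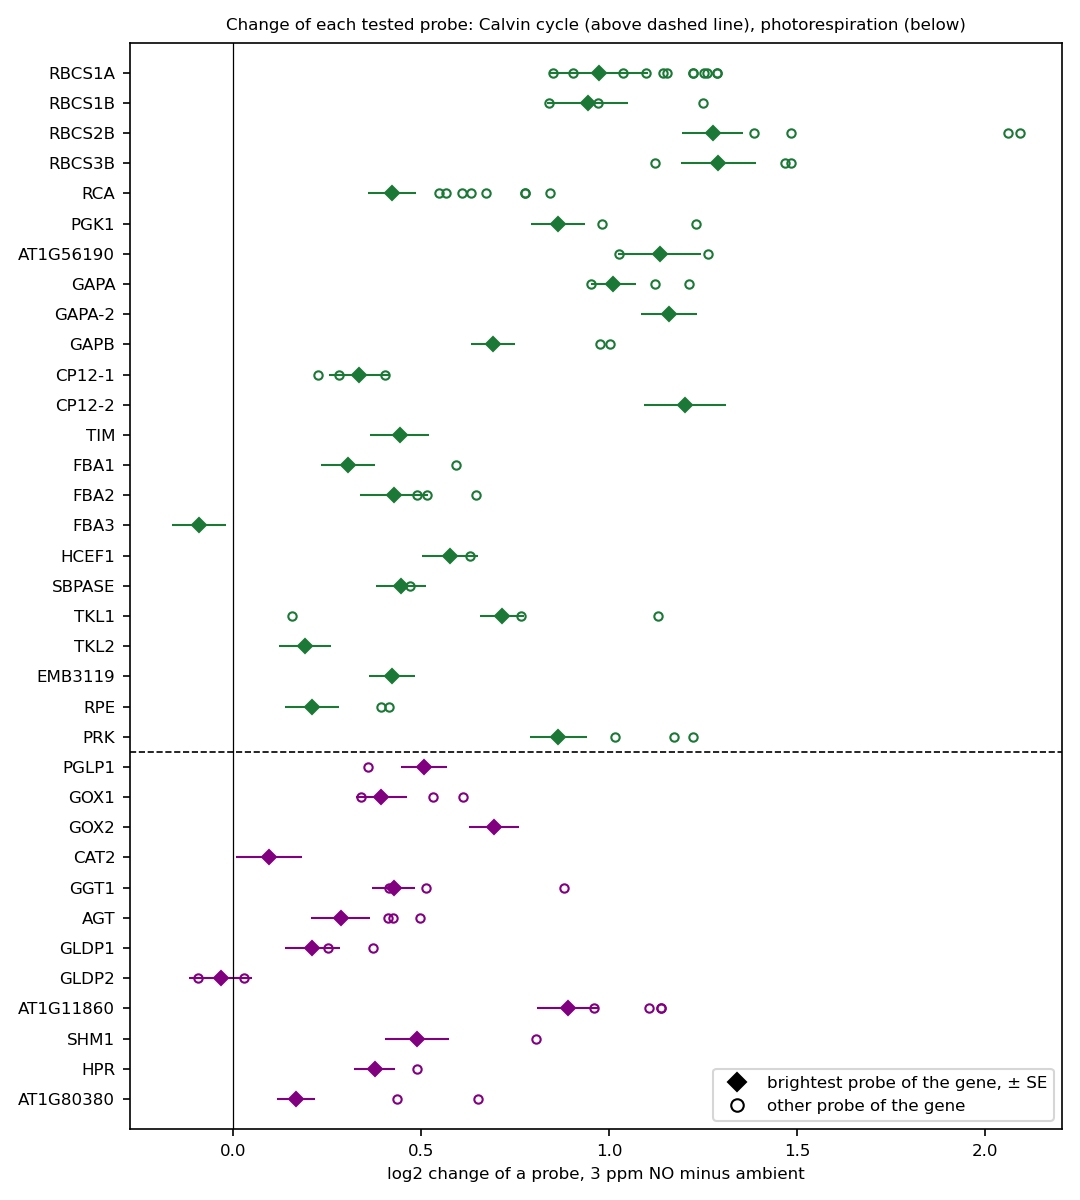
Log2 change of each tested probe of the 35 members. Diamonds are the brightest probe of the gene with its SE, open circles the other probes, and the dashed line separates Calvin cycle from photorespiration members; the brightest probe lies to the left of the median of the other probes in 25 of 27 genes.

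**Figure D4:**
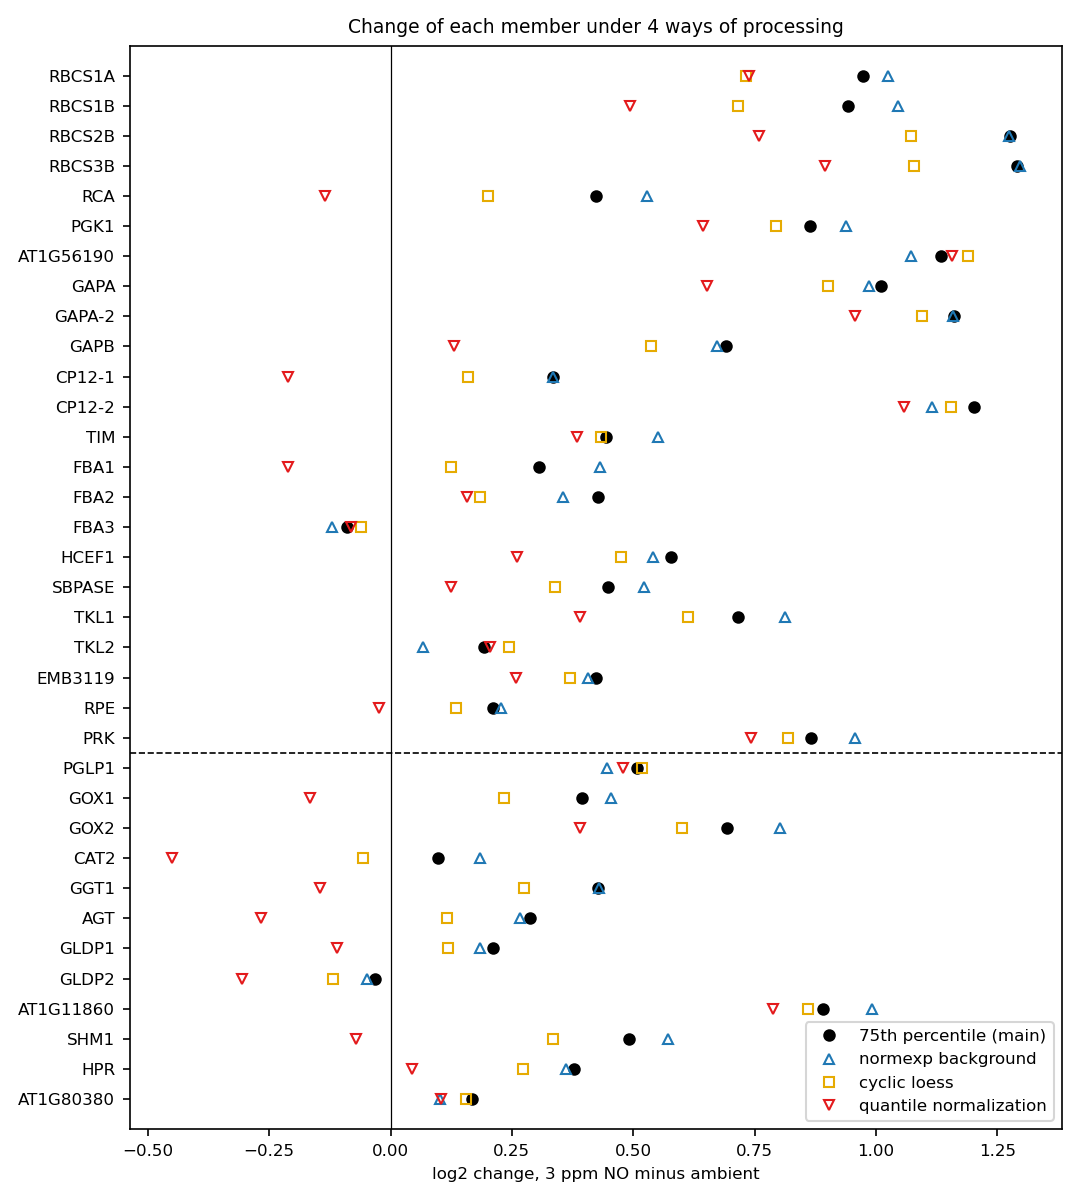
Log2 change of each member's brightest probe after 4 ways of processing the same scanner signals: scaling to the 75th percentile, normexp background correction, cyclic loess and quantile normalization. The dashed line separates Calvin cycle from photorespiration members; quantile normalization gives the lowest median in both groups, 0.38 and -0.09, and places 10 members that were positive in the main values below 0.

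Members were concentrated among bright probes. Of the genes tested, 91 had a mean relative log2 signal of 6 or more, and 14 of these were members, while another 14 members lay between 4 and 6. The 77 other genes at 6 or more had a median change of 0.33, and 55.8% of them were higher. The 14 members there had a median of 0.43, and 13 of them, or 92.9%, were higher. Between 4 and 6 the 435 other genes had a median of 0.00, with 34.3% higher, and the 14 members a median of 0.64. Between 2 and 4 the other genes had a median of -0.05 and the 4 members one of 0.48. Under quantile normalization the median of the 77 bright other genes was -0.15, with 28 higher and 36 lower. Among the 14 bright members, only RBCS1A, RBCS1B, RBCS2B and RBCS3B still passed as higher in that setting. CP12-1, FBA1, GOX1, CAT2, GGT1 and AGT passed as lower there, and RCA, GAPB, FBA2 and SHM1 did not pass. Bright members were thus not mostly higher in that setting. The part of signal brightness in the members' changes was not tested.

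**Figure D5:**
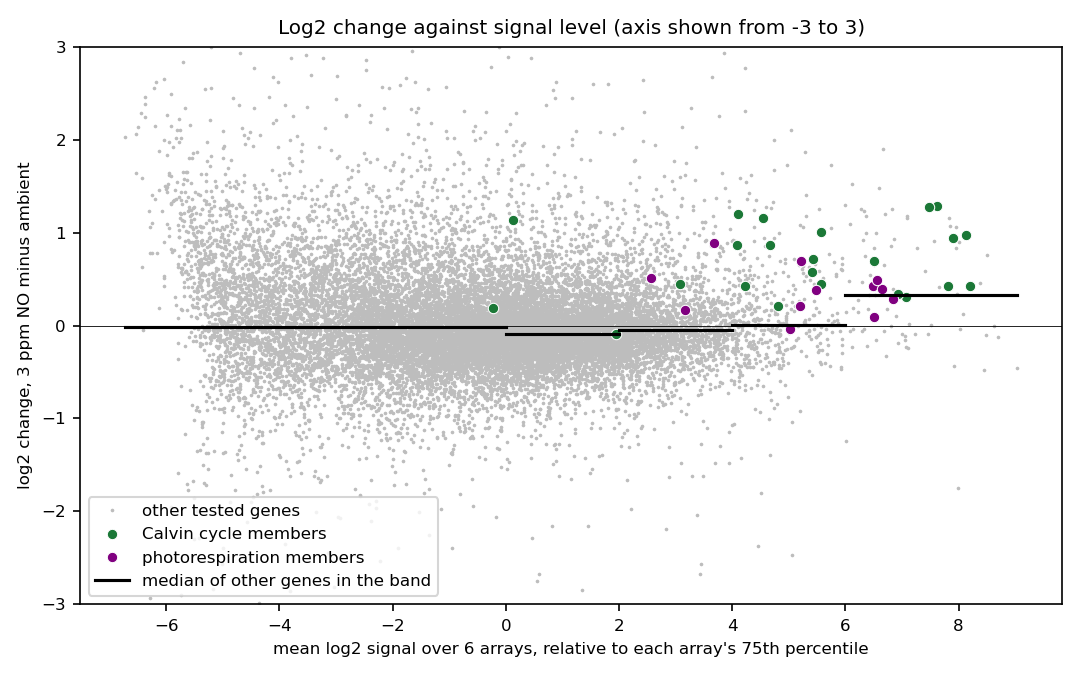
Log2 change against mean relative log2 signal over the 6 arrays for the genes tested, with Calvin cycle members in green, photorespiration members in purple and other genes in grey. Black bars are the median of the other genes in each band of signal and rise to 0.33 at 6 or more; 50 genes above 3 and 16 genes below -3 lie outside the axis.

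Further genes of the same pathways gave a mixed picture. Of 68 tested genes in 5 lists, 33 were higher, 10 were lower and 25 did not pass, with a median change of 0.15. Over all genes tested, 25.7% were higher and 32.2% lower. Among 20 genes for like enzymes that mostly work outside the cycle, in glycolysis and sucrose synthesis, 9 were higher and 3 lower, with a median of 0.10. FBA5, an aldolase, rose by 2.31 ± 0.07 (limma adjusted p 2.61e-06), but by 0.53 when its 3 probes were averaged. FBP, the cytosolic fructose bisphosphatase, rose by 0.77 ± 0.05, TPI, the cytosolic triose phosphate isomerase, by 0.63 ± 0.05, and the aldolase FBA7 by 1.03 ± 0.07. GAPCP-1, a plastid glyceraldehyde phosphate dehydrogenase of glycolysis, fell by 0.25 (change -0.25 ± 0.06).

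Genes for the folding and assembly of Rubisco went in both directions. Of 10 tested, 3 were higher, 2 lower and 5 did not pass, with a median of 0.00. Over all genes tested 25.7% were higher and 32.2% lower, so the count of higher assembly genes was near the share over all genes. RbcX1, an assembly chaperone, rose by 1.77 ± 0.07 (limma adjusted p 6.53e-06), and AT3G04550 rose by 0.42 ± 0.07. CPN60A and CPN20, a subunit and a cofactor of the chloroplast chaperonin that folds the large subunit, changed by -0.45 ± 0.05 and -0.36 ± 0.06. Of 14 thioredoxin system genes, only some of which switch cycle enzymes on in the light, 8 were higher and 2 lower, with a median of 0.23. TRXF2, an f-type thioredoxin, rose by 1.04 ± 0.05 (limma adjusted p 1.39e-05), and AT2G04700 rose by 0.66 ± 0.07. TY1, a y-type thioredoxin, and TRX z, a plastid thioredoxin, changed by -0.61 ± 0.08 and -0.48 ± 0.05.

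Of 19 further photorespiration enzymes tested, 10 were higher, 2 lower and 7 did not pass, with a median of 0.28. The shares over all genes tested were 25.7% higher and 32.2% lower. Other subunits of glycine decarboxylase were among the higher genes, with GDCH, an H protein, at 0.77 ± 0.08 and mtLPD1, the mitochondrial lipoamide dehydrogenase, at 0.77 ± 0.06. AT1G32470 rose by 0.98 ± 0.09, and PMDH2, a peroxisomal malate dehydrogenase that supplies NADH for hydroxypyruvate reduction, rose by 0.66 ± 0.06. GOX3, another glycolate oxidase gene, changed by -0.37 ± 0.06. AT5G36790, which lies on chromosome 5 with 9 protein-coding genes between it and PGLP1, had no probe of its own among those matched, so the value of PGLP1 may include it. Of 5 transporter genes, LrgB, the plastid carrier of glycolate and glycerate, rose by 0.51 ± 0.04, BOU, a mitochondrial carrier, by 0.35 ± 0.07 and DiT1, a plastid dicarboxylate carrier, by 0.17 ± 0.04, while AT4G22840 changed by -0.28 ± 0.05.

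Markers of cell types moved in different directions. Over all genes tested 25.7% were higher and 32.2% lower. All 4 mesophyll markers, CA1, CAB1, CAB2 and CAB3, were higher in NO. Their summed signal relative to the 75th percentile ranged from 454 to 483 in ambient air and from 862 to 1144 in NO. The changes were unlike, at 3.57 for CA1 and 1.00, 1.16 and 1.06 for CAB1, CAB2 and CAB3. Under quantile normalization they were 3.41 for CA1 and 0.77, 0.59 and 0.68 for CAB1, CAB2 and CAB3. Of 4 guard cell markers 1 was higher and 3 lower, with FMA at -0.67, MYB60 at -0.33 and KAT1 at -0.19. Their summed signals of 9.06 to 9.53 in ambient air and 12.7 to 13.9 in NO followed AT1G22690, the marker that was higher (0.93 ± 0.06), and do not describe the list. Of 6 vascular markers 4 were higher and 2, SUC2 and APL, were lower, with sums of 16.9 to 18.0 and 19.6 to 20.4. Of 3 shoot meristem markers 2 were higher, with sums of 1.60 to 1.65 and 2.09 to 2.30. Of 5 root markers, 2 were well above background on no array, and the sum ranged from 0.489 to 0.549 in ambient air and from 0.450 to 0.542 in NO. This sum hides opposite changes, since of the 3 tested PYK10 was higher (0.94, and 0.36 with normexp) and TIP2;3 lower (-0.28). The 4 flower markers summed to 0.575 to 0.700 and 0.689 to 0.764, and the 3 seed markers to 0.0346 to 0.0379 and 0.0218 to 0.0453. Among flower markers 2 were higher, PI (0.43) and AP3 (0.43, but -0.04 with normexp), and 0 lower. CRU3, the 1 seed marker tested, was lower (-0.65). The part of cell composition in the members' changes was not tested.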

How the data were processed

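Rosette leaf RNA was labelled with Cy3 for Agilent one-colour arrays, per the labels. Spot intensities in the deposited scanner files are linear. Agilent Feature Extraction had subtracted background from their processed signal, with 10.7.3.1 given as its version per the file headers and 10.5 per the submitters' processing notes. The authors also deposited log2 values in a series matrix, which correlated with the scanner values (scaled to the 75th percentile and centred on each probe's median) at r of 1.000 on every array, although 36.9% to 98.1% of probes lay within 0.01. Their column medians were 0.03, 0.04 and -0.02 for ambient and 0.02, -0.07 and -0.03 for NO arrays. They served as an alternative.

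Processed signals were put on the log2 scale and the array's 75th percentile (715 to 1321 before the log) was subtracted. Control spots and outlier spots (5 to 18 an array) were not used, and repeated spots were averaged by probe. By accession, 34285 of the 43603 probes could be assigned to a locus of RefSeq's TAIR10.1 gene table and 9318 could not. A gene was represented by the probe of highest mean log2 signal and tested if all 3 arrays of at least 1 group showed that probe well above background. Groups came from the sample titles. Groups were compared with limma 3.58.1 (lmFit, then eBayes; R 4.3.3), checked on simulated data. Pairs were compared by an exact permutation test over arrays, with an SE from the array differences and not from limma. The alternatives were normexp with an offset of 50, quantile, median and cyclic loess scaling, the mean of a gene's probes, no filter on dim probes, the series matrix, each array left out, and replicate blocks. Normexp used the median spot signal in place of the planned mean.

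The members and lists were chosen with earlier results of these data known. In each functional group, values per array are given for the members of largest and smallest change, those that oppose their group, any whose probes passed in opposite directions (there were 0) and pairs differing by more than 0.5. From other lists, up to 4 genes with the smallest adjusted p and the largest change in each direction are named. The number of arrays limits the precision.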

Additional observations from a re-analysis of the deposited data

How the results depend on the processing

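Under quantile normalization 3 photorespiration members were higher and 5 lower, 19 of their probes were higher, the median changes were 0.38 for Calvin cycle and -0.091 for photorespiration members, and the difference between them was 0.48. Across all 18696 genes tested, 4489 were higher and 6447 lower in that setting. Single genes that turned were RCA (-0.13), CP12-1 (-0.21), FBA1 (-0.21), RPE (-0.024), GOX1 (-0.17), CAT2 (-0.45), GGT1 (-0.14), AGT (-0.27), GLDP1 (-0.11) and SHM1 (-0.071), and FBA1 minus FBA3 turned to -0.13. The cause was not tested. The medians were 0.62 and 0.31 with median scaling and 0.54 and 0.25 with cyclic loess, where CAT2 was at -0.057 and FBA1, RPE, AGT and GLDP1 no longer passed, CAT2 passed as higher with normexp (0.18), and the mean of probes gave a difference of 0.27 and GOX1 minus GOX2 at 0.36. GLDP2 ranged from -0.085 to 0.033 with 1 array left out, and was above 0 without ambient replicate 2 (0.020) or NO replicate 2. With 1 array left out, 20 to 22 Calvin cycle and 7 to 10 photorespiration members were higher, with medians of 0.66 to 0.73 and 0.36 to 0.40. TKL2, RPE, GLDP1, AGT and AT1G80380 each lost their call in at least 2 of these fits. With the title number as a replicate block, 10020 genes in all, 21 Calvin cycle and 8 photorespiration members and 42 other pathway genes passed. With source-name numbers, shared by 4 arrays only, the replicate block left 7047 genes, 17 Calvin cycle and 5 photorespiration members and 25 other pathway genes, with fewer arrays in the fit. Deviations from the group means of arrays with the same title number correlated at -0.08, -0.05 and 0.05, so the numbers were not taken as a pairing. Of the values of single members under the alternatives, 459 kept their direction and their side of the threshold, 51 kept direction but no longer passed, 2 newly passed and 13 turned.

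The number of arrays and the overlap of slide with treatment limit every value.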
